A study of Mus musculus with 20 samples.

Results

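The hepatocyte identity factors described here are the 8 transcription factor genes Cebpa, Cebpb, Hnf4a, Foxa1, Foxa2, Foxa3, Onecut1 and Prox1, taken by symbol from the 18193 genes that the array measured with a probe set naming 1 gene. A probe set is the group of short probes that reads 1 transcript. The 8 genes had 15 probe sets, of 34945 that named 1 gene, and 4 of the genes had a single one. RNA came from the livers of 20 male C57BL/6J mice, aged 8 weeks and fasted for 16 h before the liver was taken, with 1 array per mouse. For 4 weeks all of them had received a diet in which fat gave 45 kcal%, either plain (HFD, 10 mice) or with 0.02% of MSXH, an extract that the labels call maple syrup extract high (002MSXH, 10 mice). All had eaten a low-fat diet for acclimation beforehand. The groups of the study on a low-fat diet and on 0.05% MSXH were not analysed here.

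Hepatocytes keep their character through a small set of DNA-binding proteins that regulate each other's genes and share enhancers. The forkhead proteins FOXA1, FOXA2 and FOXA3 open chromatin for other factors, HNF4A is a nuclear receptor that drives genes for lipoproteins, clotting factors and drug handling, and ONECUT1 (HNF6) and PROX1 act with HNF4A on bile acid, glucose and lipid genes. CEBPA and CEBPB are basic leucine zipper proteins that bind the same DNA element. CEBPA is known for the resting, metabolically active hepatocyte, and CEBPB for fasting, glucocorticoid, acute phase and regenerative responses.

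The promoters of the members that the results turn on come from RefSeq (GRCm38.p6), which held a promoter for all 8. They are printed 5′ to 3′ with motif matches in capitals. All but that of Foxa1 stop before the annotated start of the gene. The Foxa1 stretch lies before a transcript start that RefSeq places inside the annotated gene, which runs on the minus strand from 57548029 to 57540628 on chromosome 12. Onecut1 and Cebpb are shown because they ran opposite to each other across mice, as described further on. Foxa2, Hnf4a and, as 30 bases around its match, Foxa1 are shown because their windows hold letters of an ONECUT or FOXA element. Cebpa is shown because it had the smallest p of the members between the diets.
Onecut1, chr9:74861671-74861920, plus strand: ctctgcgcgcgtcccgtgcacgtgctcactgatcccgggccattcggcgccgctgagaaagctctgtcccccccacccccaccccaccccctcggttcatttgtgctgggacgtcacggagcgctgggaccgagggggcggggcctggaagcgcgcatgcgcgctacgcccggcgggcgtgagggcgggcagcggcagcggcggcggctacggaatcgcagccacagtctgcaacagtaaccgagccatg
Cebpb, chr2:167688665-167688914, plus strand: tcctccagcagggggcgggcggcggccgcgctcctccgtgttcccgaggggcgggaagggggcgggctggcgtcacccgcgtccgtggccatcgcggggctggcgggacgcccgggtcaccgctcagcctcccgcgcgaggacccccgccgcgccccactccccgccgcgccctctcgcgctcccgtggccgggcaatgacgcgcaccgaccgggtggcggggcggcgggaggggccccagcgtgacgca
Foxa2, chr2:148046970-148047219, minus strand: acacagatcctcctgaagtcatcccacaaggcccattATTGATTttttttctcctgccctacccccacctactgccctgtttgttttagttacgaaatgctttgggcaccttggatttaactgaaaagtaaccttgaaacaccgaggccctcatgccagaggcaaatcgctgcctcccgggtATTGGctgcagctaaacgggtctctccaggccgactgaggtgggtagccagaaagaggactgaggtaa
Hnf4a, chr2:163506607-163506810, plus strand: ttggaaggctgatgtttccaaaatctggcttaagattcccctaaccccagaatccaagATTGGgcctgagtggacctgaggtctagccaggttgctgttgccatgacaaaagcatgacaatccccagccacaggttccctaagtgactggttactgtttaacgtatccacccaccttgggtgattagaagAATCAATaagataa
Foxa1, chr12:57546235-57546264, minus strand: ttatactgctttGTAAACAaagtgagggcc
Cebpa, chr7:35119043-35119292, plus strand: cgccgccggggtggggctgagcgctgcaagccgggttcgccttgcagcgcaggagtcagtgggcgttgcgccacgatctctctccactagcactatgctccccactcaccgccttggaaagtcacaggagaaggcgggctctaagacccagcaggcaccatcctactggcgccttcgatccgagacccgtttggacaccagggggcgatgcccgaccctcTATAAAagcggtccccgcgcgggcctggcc

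The search covered both strands of the 250 bases before each of the 12 start sites that RefSeq lists for the 8 genes, and the same stretch of 32851 promoters in all. The ONECUT element ATTGATT was found in 2 of the 12 windows, 213 bases before a start of Foxa2 and, on the other strand, 60 bases before a start of Hnf4a, against 2.61% of all promoters. In both genes the match lay in the window printed above. Their other windows held none, among them that of a downstream Hnf4a start, which begins at 163546905. Which start the livers used was not tested. The FOXA element TGTTTAC was found in 1 window, on the strand opposite to the printed one, 141 bases before that transcript start of Foxa1 and so inside the annotated gene, against 3.17% of all promoters, and its variant TATTTAC in none (2.73%). The TATA box TATAAA was found in 4 windows (12.4% of all promoters), among them that of Cebpa, 30 bases before its start. The CCAAT box, searched as CCAAT, was found in 5 windows (33.8%), among them those printed for Foxa2 and Hnf4a, where the capitals ATTGG are its reverse strand. No window held the C/EBP palindrome TTGCGCAA (0.164%), its relaxed form TTGCNNAA, which includes the palindrome (9.56%), the HNF4A element CAAAGTCCA (0.384%), the palindromic HNF1 element (0.00913%) or the cyclic AMP response element TGACGTCA (1.55%). A match describes letters only.

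Levels ran from 5.17 to 15.01 and are read here as log2, although no source names the log base or the normalization of the arrays. Their spread was compressed, with an SD over the 20 arrays of less than 0.001 for 97.6% of 45101 probe sets, so no difference is given as a fold. Levels of different genes are not set against each other. Group differences are given as standardized differences, which divide the 002MSXH mean minus the HFD mean by the SD pooled from both groups and carry a 95% interval. Arrays 002MSXH 4 and 002MSXH 6 stood apart: the summed level of 14 skeletal muscle markers was 113.2 and 105.4 on them and between 89.3 and 90.4 on the other 18, and their array medians were the highest. Results that turn on these arrays are given with and without them. RNA was read from whole liver, so fewer cells of a type and less RNA per cell cannot be told apart.

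Of the defining hepatocyte transcripts, those of the plasma proteins albumin (Alb) and transthyretin (Ttr) had mean levels in HFD of 14.71 and 14.48. These are given as values, since array levels do not rank genes. The weaker of the Onecut1 probe sets lay above the array median on 0 of 20 arrays, and the other 14 probe sets of the members on all 20.

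The comparison of 002MSXH with HFD asks whether the extract altered these regulators in livers of mice on the fatty diet. None of the 8 passed an adjusted p of 0.05 in the limma fit over all 18193 genes, where 0% of genes did. At an unadjusted p under 0.05 there was 1 member, Cebpa, higher in 002MSXH, beside 10.9% of all genes (6.58% higher and 4.31% lower), a share near that background. Of all genes at that p 60.4% were higher in 002MSXH, but 2.27% after quantile normalization and 9.52% with arrays centred on their medians, where the median standardized difference of all genes moved to -0.553 and -0.661. Without 002MSXH 4 and 6 the share was 61.4% after quantile normalization and 65.3% after centring, with medians of 0.108 and -0.0326. Over the 15 probe sets of the members, Cebpa was again the 1 at an unadjusted p under 0.05, beside 10.7% of all probe sets (6.03% higher and 4.69% lower). Without 002MSXH 4 and 6 it was the 1 member of 8, beside 10.3% of all genes (6.27% higher and 4.02% lower). Of the 8 members 6 were lower and 2 higher in 002MSXH, with a median standardized difference of -0.288, beside 0.0669 over all genes, of which 8247 were lower and 9945 higher.

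Cebpa, on chromosome 7 at 35119293 to 35121928 in GRCm38.p6 (gene ID 12606), was the member that differed most between the diets. It ran from 9.93969 through a median of 9.93992 to 9.94033 in HFD and from 9.94005 through 9.94016 to 9.94046 in 002MSXH. All 10 mice on the extract lay above the HFD median, and 8 of the 10 HFD mice lay below the lowest 002MSXH mouse, so the groups overlapped through the remaining HFD mice. The standardized difference was 1.58 (95% interval 0.545 to 2.57, 10 mice against 10), with 002MSXH higher in 88 of the 100 pairs of mice. The limma p was 0.00198, rank 156 of all genes, and the Benjamini-Hochberg adjusted p was 0.229, so Cebpa is not called. The difference of means was 2.53e-04 on the log scale. It stood at 1.57 without 002MSXH 4 and 6 and at 1.63 when the other 18 arrays were centred on their medians, but at 0.303 when all 20 were centred and at -1.48 after quantile normalization, so that its direction depends on the scaling. The factor has 1 probe set here, and no other reading stands beside it.

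**Figure D1:**
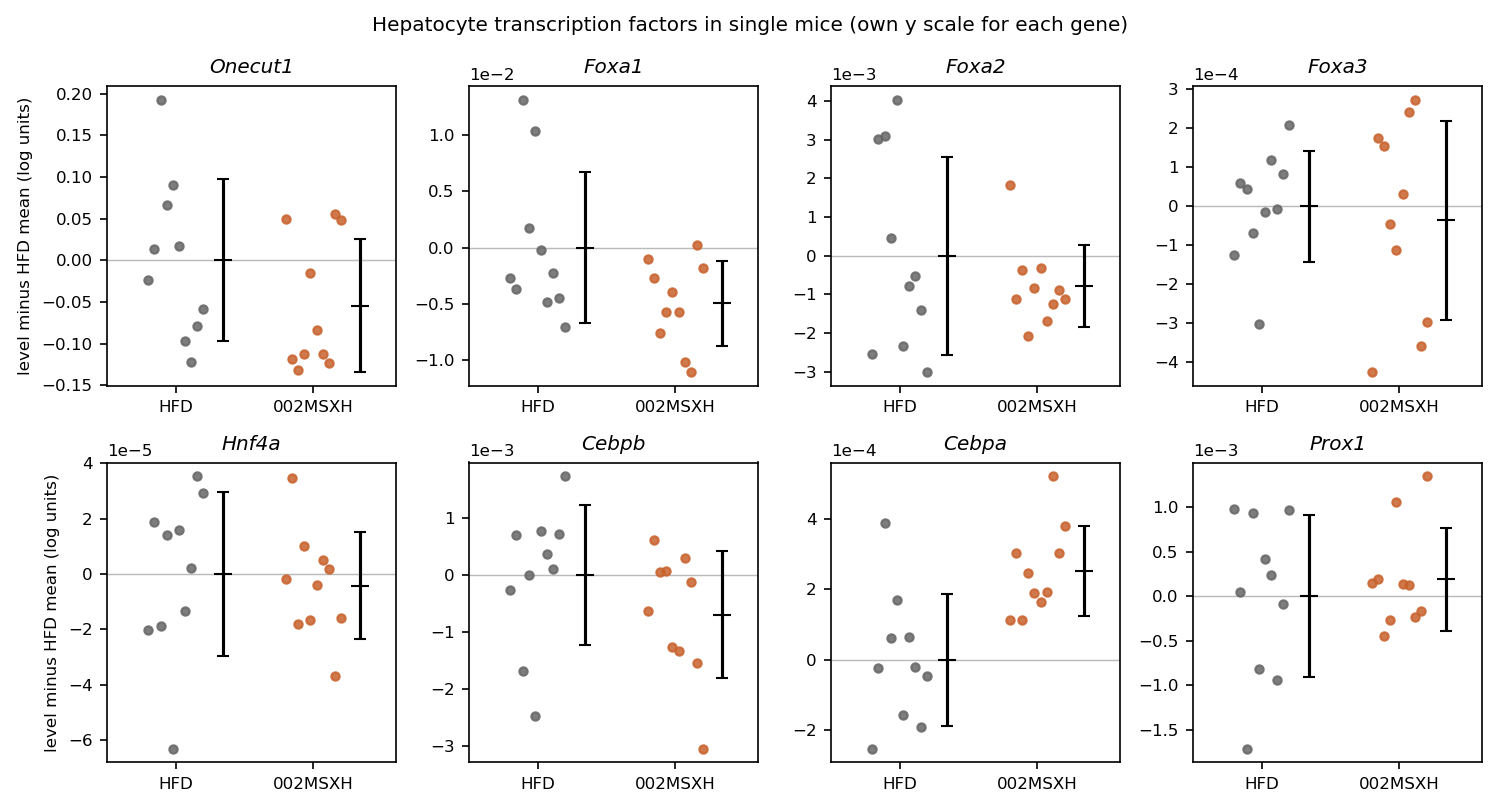
Level of each member in each mouse minus the HFD mean, in log units on a scale of its own for each gene; points are mice, and the bar to the right of each group is its mean ± SD (n = 10). Cebpa is higher in most 002MSXH mice, and the spread of Onecut1, with SDs of 0.0971 in HFD and 0.0801 in 002MSXH, is far wider than that of the other members.

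Cebpb, the partner that binds the same element, differed by -0.589 (-1.48 to 0.315; limma p 0.195, adjusted p 0.655), and its other probe set by -0.626 (-1.52 to 0.282). Its levels ran from 10.7436 through 10.7463 to 10.7478 in HFD and from 10.7430 through 10.7457 to 10.7467 in 002MSXH. The groups overlapped, with 4 HFD mice above every 002MSXH mouse and 1 002MSXH mouse, number 10, below every HFD mouse. Hnf4a had 4 probe sets, of which the brightest differed by -0.168 (-1.04 to 0.713; limma p 0.707, adjusted p 0.925) and the others by -0.566, -0.420 and -0.513. Its range was 12.34467 to 12.34477 in HFD and 12.34470 to 12.34477 in 002MSXH. The intervals of all Hnf4a and Cebpb probe sets included 0.

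Among the forkhead genes, Foxa1 came nearest to the threshold for an unadjusted p, at -0.914 (-1.83 to 0.0229; limma p 0.0513, adjusted p 0.462). Its levels ran from 8.5666 through 8.5711 to 8.5868 in HFD and from 8.5625 through 8.5688 to 8.5738 in 002MSXH. The 3 highest mice were all HFD and the 3 lowest all 002MSXH. Its limma p was 0.0376 after quantile normalization and 0.0363 when all arrays were centred, at differences of -0.957 and -0.943. In those scalings the median of all genes had moved the same way, to -0.553 and -0.661. Foxa2 differed by -0.399 (-1.28 to 0.493; limma p 0.375) and Foxa3 by -0.176 (-1.05 to 0.704; limma p 0.692). The SD of Foxa2 was 0.00256 in HFD and 0.00107 in 002MSXH, with 3 HFD mice above and 3 below every 002MSXH mouse. That difference in spread was not tested.

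Onecut1, which encodes the cut-homeodomain factor HNF6, had a wider spread between mice in the deposited values than any other member. By the probe set used it ran from 7.10 through 7.22 to 7.41 in HFD and from 7.09 through 7.12 to 7.28 in 002MSXH. HFD 3, 5 and 4 were the highest of all 20 mice, while in 002MSXH mice 1, 9 and 10 stood together at the top, and the groups overlapped. The standardized difference was -0.612 (-1.50 to 0.295; limma p 0.180, adjusted p 0.638), and at the other probe set it was -0.659 (-1.55 to 0.252). The difference of means was -0.0544 on the log scale, where the HFD mice alone had an SD of 0.0971. Prox1, a homeodomain factor that represses bile acid synthesis genes with HNF4A and also marks lymphatic endothelium, differed by 0.246 (-0.638 to 1.12; limma p 0.582), and by 0.263 and 0.780 at its other probe sets.

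**Figure D2:**
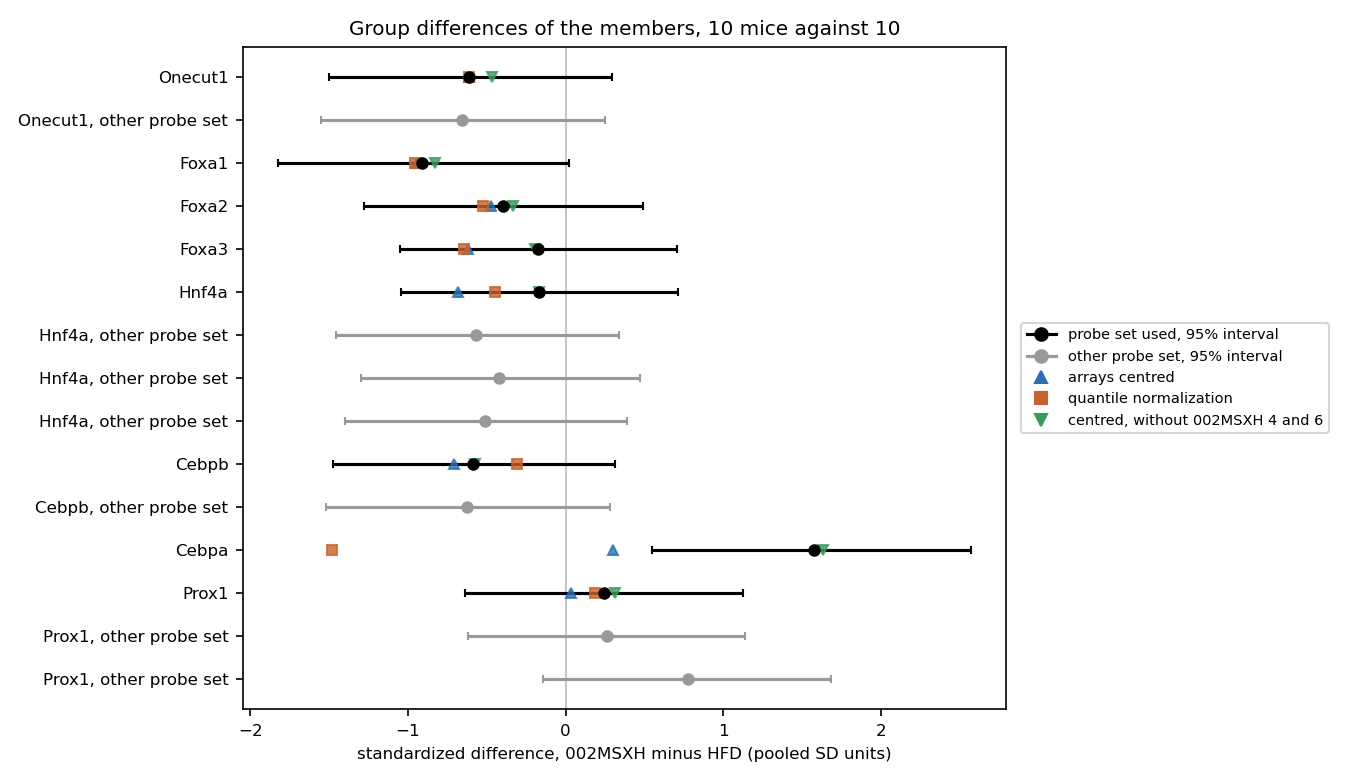
Standardized difference, 002MSXH minus HFD, in units of the pooled SD, for the 15 probe sets of the members with 95% intervals (10 mice against 10); black is the probe set used for a gene, and coloured marks repeat it under other scalings. Cebpa alone has an interval without 0, and its mark moves from 1.58 to -1.48 under quantile normalization.

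The members also varied between mice of the same diet in the deposited values. Of the 8, 7 were in the top 10% of all genes by the SD within groups. Onecut1 stood at percentile 99.8, Foxa1 at 98.8, Foxa2 at 97.9, Cebpb at 97.2 and Hnf4a lowest at 70.6. Of 30 other liver-enriched factors and nuclear receptors 19 were in the top 10% too, as were 13 of 15 macrophage, 11 of 13 stellate cell and 11 of 14 muscle markers, but 1 of 12 hepatocyte markers. A wide spread was therefore not particular to regulators. These percentiles rank the deposited values, whose spread was compressed, and the median percentile of the hepatocyte markers was 6.17. How far the ranks reflect the mice or the processing was not tested. Of the 11 pairs of probe sets for the same gene, 4 passed the adjusted p by both measures over the 20 mice with the group mean removed, 1 each for Onecut1, Cebpb, Hnf4a and Prox1. Pearson r was 0.987 for those of Onecut1 and 0.941 for those of Cebpb (permutation p 1e-05 for each, the smallest possible, adjusted p 5.5e-05 over 11 pairs of probe sets; Spearman rho 0.976 and 0.902 at the same p and adjusted p). Without the 2 mice farthest from the median the r values were 0.987 and 0.917. For Hnf4a the brightest probe set followed a second one at 0.680 (permutation p 0.00079, adjusted p 0.0029; rho 0.653, p 0.00318, adjusted p 0.0117), but the dimmest of its probe sets followed none of the others (r from -0.0949 to 0.103). The platform annotation lists the same source sequence for both Onecut1 probe sets and for the 2 Hnf4a probe sets at 0.680. The remaining Hnf4a probe sets also share a source sequence, at r -0.0897. For Prox1 1 pair stood at 0.658 (permutation p 0.00418, adjusted p 0.0115; rho 0.606, p 0.0108, adjusted p 0.0298), and the others, at 0.441 and 0.396, did not pass (adjusted p 0.103 and 0.139).

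Across mice, Onecut1 and Foxa1 varied together and Cebpb and Foxa3 varied together, with each of the first pair running against each of the second. Hnf4a varied with Cebpb, and Foxa2 with Foxa1 and against Cebpb. Of the 28 pairs of members, 9 passed a Benjamini-Hochberg adjusted p of 0.05 over the 28 in permutation tests within groups by both Pearson r and Spearman rho, and 11 did by Pearson r alone. The share of all gene pairs passing the same tests was not computed. Of all genes, 7.72% had a Spearman rho of at least 0.5 with Onecut1 and 8.16% one of at most -0.5. These shares were 8.64% and 7.05% with Foxa1, 6.51% and 7.09% with Foxa3, and 6.23% and 6.21% with Cebpb. With Hnf4a they were 3.31% and 3.72%, and with Foxa2 1.88% and 1.44%. The relation was closest between Onecut1 and Foxa1, with r 0.837 (permutation p 1e-05, adjusted p 2.8e-04) and rho 0.767 (p 1.3e-04, adjusted p 0.00182) over 20 mice. It was 0.874 within HFD and 0.798 within 002MSXH, and 0.762 without HFD 3 and 5, the mice farthest from the Foxa1 median. HFD 3 and 5 were the highest mice in both genes.

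Cebpb ran against Foxa1 and Onecut1 and with Hnf4a and Foxa3. With Foxa1 its r was -0.756 (permutation p 4.4e-04, adjusted p 0.00378; rho -0.626, p 0.00411, adjusted p 0.0161), and with Onecut1 -0.714 (p 7e-04, adjusted p 0.00392; rho -0.627, p 0.00424, adjusted p 0.0161). With Hnf4a it was 0.786 (permutation p 6e-05, adjusted p 8.4e-04; rho 0.764, p 1.2e-04, adjusted p 0.00182), and with Foxa3 0.669 (p 0.00115, adjusted p 0.0046; rho 0.677, p 0.00221, adjusted p 0.0124). Without HFD 5 and 002MSXH 10, the mice farthest from the Cebpb median and the lowest in Cebpb, these 4 values were -0.724, -0.687, 0.745 and 0.532. Within HFD they were -0.904, -0.673, 0.882 and 0.759, and within 002MSXH -0.522, -0.772, 0.650 and 0.675, so each kept its sign within both diets.

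**Figure D3:**
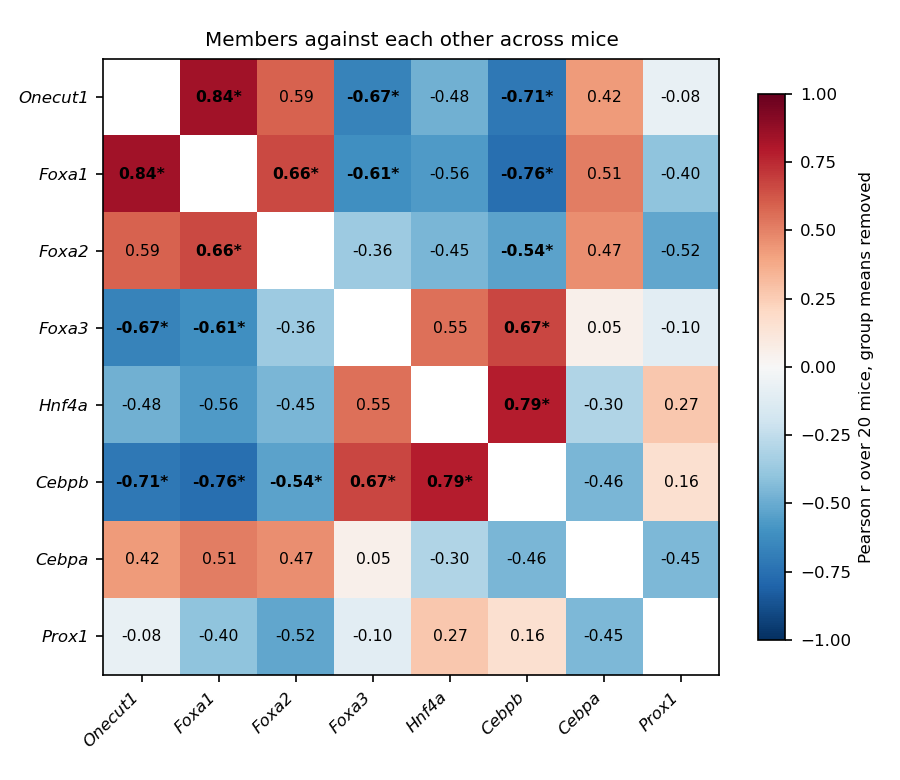
Pearson r of each pair of members over 20 mice with the group mean removed, red for positive and blue for negative; bold values with a star passed the adjusted p of 0.05 by both Pearson r and Spearman rho. Onecut1 with Foxa1 is the highest value (0.837), and Cebpb with Foxa1 the lowest (-0.756).

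The 3 forkhead genes did not move as 1 group. Foxa3 ran against Foxa1 (r -0.614, permutation p 5.4e-04, adjusted p 0.00378; rho -0.708, p 4.1e-04, adjusted p 0.00287) and against Onecut1 (r -0.671, p 0.00105, adjusted p 0.0046; rho -0.729, p 2.9e-04, adjusted p 0.00271), at -0.782 and -0.578 without the 2 farthest mice. Foxa1 and Foxa2 ran together at r 0.661 (permutation p 0.00651, adjusted p 0.0203; rho 0.612, p 0.00626, adjusted p 0.0195), but at 0.370 without HFD 3 and 5. This pair passed when 1 array was left out in 16 of 20 cases, and did not without HFD 3, 5, 9 or 10. Cebpb and Foxa2 stood at -0.538 (permutation p 0.0177, adjusted p 0.045; rho -0.597, p 0.00461, adjusted p 0.0161), and at -0.488 without HFD 5 and 002MSXH 10. This pair passed when 1 array was left out in 9 of 20 cases, and did not pass without 002MSXH 4 and 6 (r -0.525, adjusted p 0.0619). Onecut1 and Foxa2, whose promoter holds the ONECUT letters printed above, ran together at 0.587 (permutation p 0.0109, adjusted p 0.0305), while rho was 0.534 (p 0.0239, adjusted p 0.0659), and at 0.397 without HFD 3 and 5. Onecut1 and Hnf4a, the other gene with those letters, though before its upstream start alone, stood at -0.477 (permutation p 0.0457, adjusted p 0.0842; rho -0.376, p 0.118, adjusted p 0.212).

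Leaving out 002MSXH 4 and 6 kept 8 of the 9 pairs, with or without centring the other 18 arrays. Centring all 20 arrays kept 5, and quantile normalization of all 20 kept Onecut1 and Foxa1 alone (r 0.822, adjusted p 0.00112). In quantile normalization without 002MSXH 4 and 6, 6 of the 9 passed. Cebpb with Hnf4a had no value there, because Hnf4a took the same level on every array. Foxa1 with Onecut1 passed whichever of the 20 arrays was left out, as did Cebpb with Hnf4a, Foxa1, Foxa3 and Onecut1 and Foxa3 with Foxa1 and Onecut1. All members of a mouse share its array, and the part of the array in these relations was not tested beyond those scalings. Cebpa and Prox1 were in none of the 9 pairs. Prox1 with Cebpb stood at r 0.159 (permutation p 0.529, adjusted p 0.592), with 0.649 within HFD and -0.691 within 002MSXH. That difference between the diets was not tested. Cebpa with Cebpb stood at r -0.456 (permutation p 0.0532, adjusted p 0.0877; rho -0.358, p 0.129, adjusted p 0.212), with -0.644 within HFD and -0.163 within 002MSXH.

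**Figure D4:**
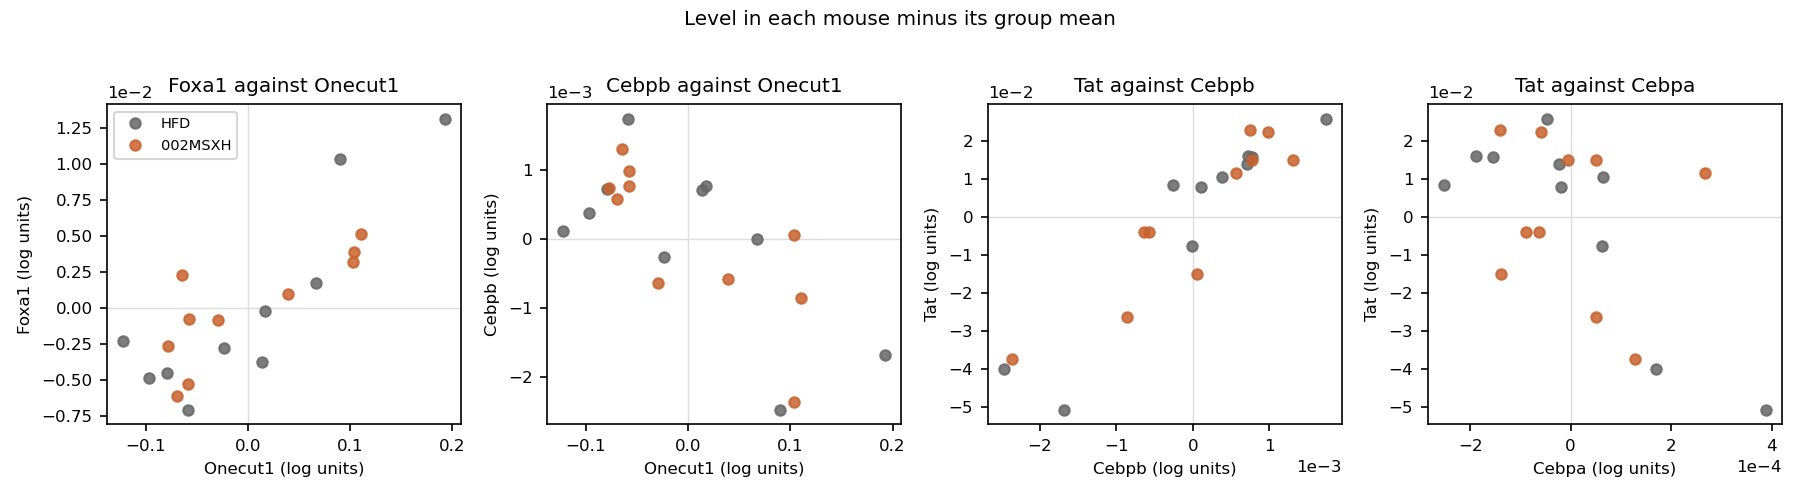
Levels in each mouse minus its group mean, in log units, for Foxa1 and Cebpb against Onecut1 and for Tat against Cebpb and Cebpa; each point is a mouse, grey HFD and orange 002MSXH. Foxa1 rises and Cebpb falls with Onecut1 (r 0.837 and -0.714), and Tat has r 0.924 with Cebpb and -0.593 with Cebpa. Tat with Cebpa did not pass by Spearman rho (permutation test, adjusted p 0.0952), and its r was -0.831 within HFD and -0.176 within 002MSXH.

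Known liver targets of the C/EBP proteins were set against both C/EBP genes across mice. Of 17 such genes measured, 8 had a Spearman rho of at least 0.5 with Cebpb and 0 had one of at most -0.5, where 6.23% and 6.21% of all genes did. The median rho was 0.498 for the list and -0.0135 over all genes. With Cebpa, 0 of the 17 reached 0.5 and 1 was at or under -0.5 (2.68% and 2.85% of all genes), with a median of -0.247. Within HFD the r of Cebpa was -0.831 with Tat and -0.702 with Pck1, and within 002MSXH -0.176 and -0.0653. With Fgb it was positive in both diets, at 0.348 and 0.441. These counts were not a test of the list. Neither the difference between the 2 factors nor that between the diets was tested.

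The target with the highest rho with Cebpb was Tat. This gene, the glucocorticoid-induced tyrosine aminotransferase gene, had r 0.924 and rho 0.928 with it (permutation p 1e-05 for each, adjusted p 3.1e-04 and 6.2e-04 over 124 relations of factors with targets), with 0.935 within HFD, 0.911 within 002MSXH and 0.894 without HFD 5 and 002MSXH 10. Lpin1, a phosphatidate phosphatase and coactivator induced by fasting, had r 0.953 and rho 0.923 at the same p values, and 0.917 without those mice. Pck1, the gluconeogenic phosphoenolpyruvate carboxykinase, had r 0.818 (permutation p 9e-05, adjusted p 0.00186; rho 0.728, p 7.4e-04, adjusted p 0.00763), and 0.684 without them. The other genes past the adjusted p by both measures were the triglyceride lipase gene Pnpla2 (r 0.807), the urea cycle genes Cps1 (0.843) and Ass1 (0.720), Igfbp1 (0.724), whose product binds IGFs, and the clotting factor gene F9 (0.651). Ass1 was read by 1 probe set alone, with a mean level of 6.81 in HFD, near the array medians of 6.52. Of the acute phase genes, Lcn2 stood at rho 0.478 (permutation p 0.0412, adjusted p 0.138), Hp, Orm1 and Hpx at 0.159, 0.134 and 0.192, and the fibrinogen gene Fgb at -0.411. The count of 8 was 9 without 002MSXH 4 and 6 (8.05% of all genes), 11 when the other 18 arrays were centred (14.7%) and 5 after quantile normalization of all 20 (16.2%).

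**Figure D5:**
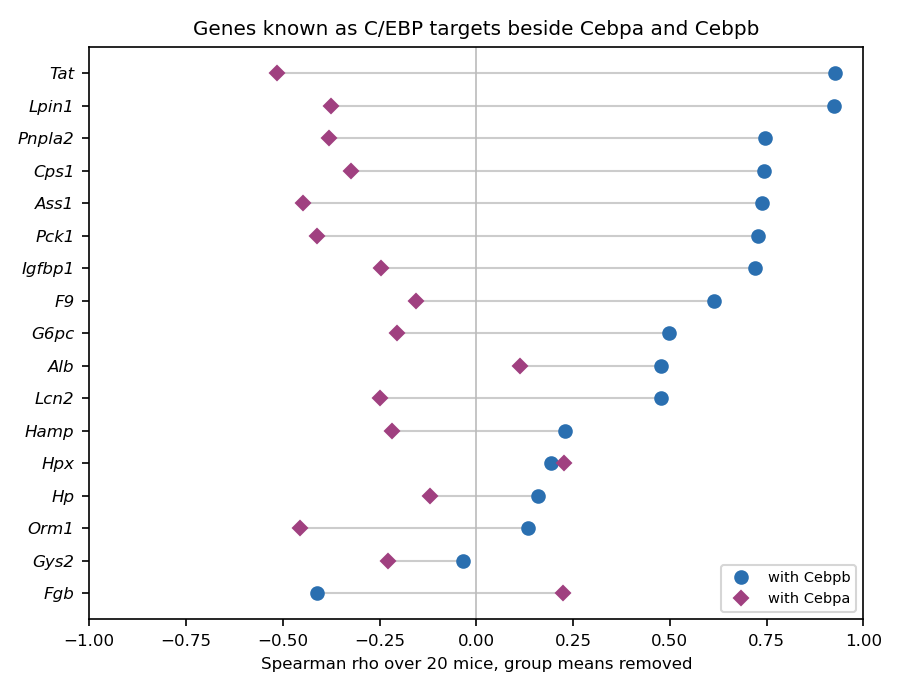
Spearman rho over 20 mice, group means removed, of each of 17 genes known as C/EBP targets with Cebpb (circles) and Cebpa (diamonds). The circles of 8 genes lie at 0.5 or above, from F9 at 0.615 to Tat at 0.928, and no diamond does.

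Several of these targets are also known for the FOXA factors and ONECUT1. Of 14 genes known as FOXA, ONECUT1 or PROX1 targets, a list that includes Hnf4a and Foxa2 themselves, 5 had a rho of at most -0.5 with Foxa1 (7.05% of all genes) and 1, Foxa2, of at least 0.5 (8.64%). Tat stood at r -0.889 with Foxa1 (permutation p 1e-05, adjusted p 3.1e-04; rho -0.764, p 1.6e-04, adjusted p 0.00661) and at -0.777 without HFD 3 and 5. With Onecut1, 5 of 14 were at or under -0.5 (8.16% of all genes) and 1 at or over 0.5 (7.72%). Tat stood there at r -0.868 (permutation p 1e-05, adjusted p 3.1e-04; rho -0.716, p 7.7e-04, adjusted p 0.00763), and Cyp8b1, the sterol 12-alpha-hydroxylase of bile acid synthesis, at -0.752 (p 1.4e-04, adjusted p 0.00217; rho -0.747, p 2.8e-04, adjusted p 0.00694). Without HFD 3 and 5 these were -0.806 and -0.651. With Foxa2, 4 of 13 were at or under -0.5 (1.44% of all genes) and 0 at or over 0.5 (1.88%).

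With Foxa3, 4 of 14 were at or over 0.5 (6.51% of all genes) and 1 at or under -0.5 (7.09%), with Tat at r 0.680 (permutation p 8.3e-04, adjusted p 0.00678; rho 0.713, p 7.4e-04, adjusted p 0.00763). With Prox1, 0 of 14 passed either limit over all mice (1.00% and 1.51% of all genes). Some of these relations had opposite signs in the 2 diets. Tat with Prox1 had r 0.701 within HFD and -0.586 within 002MSXH, while Abcc2 had 0.294 and 0.516. The difference between the diets was not tested. Of 21 measured HNF4A targets, 1 had a rho of at least 0.5 with Hnf4a (3.31% of all genes) and 0 one of at most -0.5 (3.72%). That gene was F9, at r 0.683 (permutation p 9.1e-04, adjusted p 0.00678; rho 0.595, p 0.00588, adjusted p 0.0331), and 0.546 without HFD 5 and 002MSXH 9. Tat, Pck1, G6pc, Alb, Igfbp1 and Apob are among genes held by more than 1 of these lists, so that the counts share members.

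Outside the lists, the genes whose variation over the 20 mice was most like that of a member, by Spearman rho with group means removed among 18185 other genes, are given as a description. For Onecut1 these were Gm16551 (0.934) and Serpina4-ps1 (0.925), for Foxa1 Iigp1 (0.904) and Alg14 (0.899), and for Foxa2 Rgs3 (0.848) and Foxq1 (0.786). For Cebpb they were 1810055G02Rik (0.931) and Tat (0.928), for Foxa3 Acer2 (0.926) and Pglyrp2 (0.862), and for Hnf4a Sik3 (0.817) and Atp10d (0.812). Cebpa was most like Apoc1 (0.789) and Eef1a1 (0.782), and Prox1 most like Cldnd1 (0.823) and Nkapd1 (0.743).

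Between the diets, the lists around the factors held no gene past the adjusted p. Of 30 measured liver-enriched factors and nuclear receptors, 18 were higher and 12 lower in 002MSXH, with 3 higher and 0 lower at an unadjusted limma p under 0.05 and a median of 0.166, beside 6.58% higher, 4.31% lower and a median of 0.0669 over all genes. Those directions hold for the values as deposited, since the median of all genes turned negative under quantile normalization and centring, as given above. Nr2f2 (COUP-TFII), a nuclear receptor that competes with HNF4A for DNA, was higher by 1.82 (0.748 to 2.86; limma p 5.56e-04, adjusted p 0.187), and Nr0b2 (SHP), a corepressor in bile acid feedback, by 1.03 (0.0785 to 1.95; limma p 0.0302). Among the C/EBP targets 9 were higher and 8 lower (median 0.0533), among the HNF4A targets 9 and 12 (-0.135), and among the FOXA, ONECUT1 or PROX1 targets 5 and 9 (-0.258), each with 0 higher and 1 lower at an unadjusted p under 0.05. Igfbp1, in 2 of these lists, was lower by -1.11 (-2.05 to -0.153; limma p 0.0202), and G6pc, the glucose-6-phosphatase of glucose release, stood at -0.869 (limma p 0.0625). Of the HNF4A targets, Mttp, which loads lipid onto apolipoprotein B, stood at -1.07 (limma p 0.0255) and Apoc2, the activator of lipoprotein lipase, at 0.899 (limma p 0.0548).

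Markers of other cells that use these factors did not pass the adjusted p either. The 9 cholangiocyte markers, of cells that also express Onecut1 and Foxa genes, had a median of 0.0967, with Krt19 at 0.0967, Krt7 at 0.420 and Ehf lowest at -1.51 (limma p 0.00277). The 10 adipocyte markers, of cells that depend on CEBPA, had a median of -0.163 and a summed level of 70.9 to 71.1 in each group, with Adipoq at 0.618, Fabp4 at 0.414 and Aqp7 at -1.01. The 15 macrophage markers, of cells that use CEBPB, had a median of 0.126 and of 0.534 without 002MSXH 4 and 6, with summed levels of 127.39 to 127.41 in HFD and 127.39 to 127.42 in 002MSXH (Adgre1 at 0.306, Cd68 at 0.782, Itgam at 1.44). Of these 15, 12 were higher and 3 lower in 002MSXH, with Cd163 lowest at -0.657. Itgam had a mean level of 5.98 in HFD, under the array medians near 6.52. The 11 lymphatic and blood endothelial markers had a median of 0.0625 (Lyve1 at -0.282, Pdpn at 0.0625, Pecam1 at -1.14), the 13 stellate cell markers 0.0436 (Des at 0.615, Lrat at 0.0128, Reln at -0.924) and the 12 hepatocyte markers 0.0180 (Alb at 0.476, Ttr at 0.817). Of the hepatocyte markers 7 were higher and 5 lower in 002MSXH, and the limma p was 0.344 for Alb and 0.631 for Ttr. The 14 muscle markers had a median of 0.657, and of 0.253 without 002MSXH 4 and 6 (Myh1 at 0.724, Myh4 at 0.669, Acta1 at 0.733). The part of these cells in the members' levels was not tested.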

How the data were processed

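Biotin-labelled RNA was put on Affymetrix 3' arrays, per the labels' protocols. The authors deposited 1 table of processed values, used here as log2 levels, in which array medians ran from 6.5216 to 6.5226. For the software and normalization behind it, the answer is not given in the sources used here. Probe sets were joined to genes by the platform table, which gave 1 symbol for 34958 of 45101; 34945 remained without controls. For a gene with several, the probe set with the highest mean was used, with no filter on level.

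Groups were fitted with limma 3.58.1 in R 4.3.3 (lmFit, eBayes with trend, two-sided, Benjamini-Hochberg over 18193 genes). The smallest adjusted p of any gene was 0.0728. In simulated data the fit recovered 2% of genes shifted by 1 SD and 28% of those shifted by 1.5 SD. It recovered 56% at 2 SD and 94% at 3 SD, and 3 unchanged genes were called. At 1 and 1.5 SD most shifted genes were missed, so a member that was not called may still differ by that much. Correlations over mice used values minus the group mean and two-sided permutation tests within groups (100000 permutations; Python 3.11.15, numpy 2.4.6). Motifs were exact matches.

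The members, lists and tests were chosen with earlier results of these data known. The named genes are the members, the 2 list genes of smallest p for regulators and targets, the first 2 and the smallest p of each marker list, and the 2 most alike by rho. The relations with targets, and the scalings of the relations, were added after the data were seen, and the targets named there were chosen from these relations. The mice are called biological replicates by the labels. Mice that share a number do not pair: their deviations correlated between -0.265 and 0.165. Alternatives covered scaling, probe set choice, the variance model, array weights, a rank sum test, a level filter, a replicate block and left-out arrays. The number of arrays limits the precision.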

Additional observations from a re-analysis of the deposited data

Results flagged for a closer look

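In 002MSXH, mouse 1 stood apart from the other 9 in Foxa2: the gap to the next mouse was 0.552 of the group's range, above Dixon's 95% critical value for 10 samples (8.3998 against a group median of 8.3970). This was 1 flag among 30 groups of values looked at, 15 probe sets in 2 diets, and chance flags about 1 in 20. The same mouse was among the 3 highest of its group in Onecut1 and Foxa1 and the lowest of all 20 in Foxa3.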

How the results depend on the processing

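No member passed an adjusted p of 0.05 under any alternative run; the smallest was 0.0947, for Cebpa without HFD 3. Cebpa turned under quantile normalization, to -1.48 with all arrays and to -1.28 without 002MSXH 4 and 6; in fits without 1 array it ran from 1.47 to 2.25. In those fits Prox1 ran from -0.00388 (without HFD 3) to 0.397 and Foxa3 from -0.359 to 0.0361 (without 002MSXH 1). The members at an unadjusted p under 0.05 were 2 after quantile normalization, with Foxa1, and 1 to 2 without 1 array. With the replicate block the limma p of Cebpa was 0.00749 (adjusted p 0.342) and the count stayed at 1 (1816 of all genes); the block changed no call of a member. All genes at that p numbered 1982, but 748 after quantile normalization, 210 after centring, 357 when centred without 002MSXH 4 and 6, and 986 among genes above the median gene, where fewer were tested. Past an adjusted p of 0.05 there were 4 of all genes by the rank sum test, 1 with the mean of probe sets and 0 to 3 without 1 array. The 9 related pairs became 1 under quantile normalization and 7 to 11 without 1 array. In the main setting 8 C/EBP targets followed Cebpb, beside 6.23% of all genes. That count was 5 under quantile normalization with all arrays (16.2% of all genes) and 8 with all arrays centred (3.88%). It was 5 under quantile normalization without 002MSXH 4 and 6 (11.5%) and 11 when centred without them (14.7%). Without 1 array it was 8 to 11 (5.36% to 7.99%). Hnf4a had no value under quantile normalization without these 2 arrays, because every array took the same level. The causes of these changes were not tested.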
